A study of Homo sapiens with 6 samples.

Results

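The genes described are 10 of the 58735 listed, taken by symbol: the transcription factor NRF2 (NFE2L2), its inhibitor KEAP1, and 8 targets of NRF2 in glutathione, thioredoxin, quinone and heme metabolism. The samples were 6 RNA-seq libraries of poly-A enriched RNA from A375, a human malignant melanoma cell line. A set of 3 libraries came from cells given PAL, Ringer's lactate that had been activated by low-temperature plasma, and 3 came from control cells without it. No genotype, strain or further agent is named for either group. The labels and protocols used state no dose, exposure time or meaning for the number 64 in the PAL column names. Nothing says that replicates came from separate cultures, and p-values then cover only the variation among the 6 libraries, possibly technical.

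NRF2 is a basic leucine zipper factor that KEAP1 holds for ubiquitination by a CUL3 ligase. Oxidants and electrophiles modify cysteines of KEAP1, NRF2 then escapes degradation, pairs with a small MAF protein and binds antioxidant response elements in its target genes. BACH1 is a heme-sensing repressor that occupies the same elements, with HMOX1 as its best known target. NRF2 is controlled largely at the protein level, which RNA-seq does not measure. Plasma-treated liquids carry reactive oxygen and nitrogen species, so these genes are a common readout of such treatments.

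The libraries held 15064971 to 17711389 assigned reads. Chi-square per degree of freedom of read counts was 1.97 to 3.99 between libraries of the same group and 33.1 to 40.5 between groups. Of the melanocyte and melanoma markers, SOX10 rose (108 FPKM in PAL, 88.1 in control, limma adjusted p = 3.88e-04), while S100B (4.03 in PAL, 5.18 in control, adjusted p = 0.030) and PRAME (33.4 in PAL, 37.1 in control, adjusted p = 0.0382) fell, calls kept in 18 of 18, 7 of 17 and 6 of 18 alternatives. MITF, S100A1, CSPG4, MAGEA3 and MAGEA6 were detected and not called, MIA was under 1 FPKM, and so were the pigment genes PMEL, MLANA, TYR, TYRP1 and DCT, with TYR at 0. All 4 immune and 3 endothelial markers were under 1 FPKM in every library, as were 4 of 5 fibroblast and 2 of 4 keratinocyte markers. The exceptions were LUM at 2.63 to 4.08 FPKM in PAL and 3.403 to 4.01 in control, KRT10 at 27.6 to 30.5 in PAL and 27.9 to 31.98 in control, and KRT14 at 2.57 to 3.21 in PAL and 3.403 to 4.25 in control. Of these, KRT14 was called as lower (limma adjusted p = 0.0422, kept in 9 of 17 alternatives). The part of these markers in the results was not tested. In bulk RNA, a change in part of the cells and a smaller change in all of them cannot be told apart.

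Promoter windows of RefSeq on GRCh38.p14, from 250 bases before to 50 after the gene start, were matched for 8 of the 10 genes. HMOX1 and SLC7A11 had no window. The 8 windows were searched on both strands for the core of the antioxidant response element, TGACNNNGC, which 13.3% of 35116 human promoters of that length hold. Of the 8 windows, those of TXNRD1 and GCLM held it. Both are shown with the core in capitals, beside the window of GCLC, whose product pairs with that of GCLM and whose transcript is set beside it in the results. TXNRD1 (chr12:104215529-104215828, plus strand) had TGACTTCGC starting at -99 and the reverse form GCTCCGTCA starting at -8. GCLM (chr1:93909381-93909680, minus strand) had the reverse form GCTTAGTCA starting at -34. GCLC (chr6:53545052-53545351, minus strand) had no match in this window. The RefSeq start used here lies inside the GCLC span given below and not at its outer end. Of the windows matched, only that of TXNRD1 has its start at the outer end of the span given below.
TXNRD1: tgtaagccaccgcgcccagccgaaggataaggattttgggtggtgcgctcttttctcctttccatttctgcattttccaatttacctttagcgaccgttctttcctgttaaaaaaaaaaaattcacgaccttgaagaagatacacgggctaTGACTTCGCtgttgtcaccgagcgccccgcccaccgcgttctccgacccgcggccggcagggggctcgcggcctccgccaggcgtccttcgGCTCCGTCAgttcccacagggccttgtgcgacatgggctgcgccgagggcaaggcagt
GCLM: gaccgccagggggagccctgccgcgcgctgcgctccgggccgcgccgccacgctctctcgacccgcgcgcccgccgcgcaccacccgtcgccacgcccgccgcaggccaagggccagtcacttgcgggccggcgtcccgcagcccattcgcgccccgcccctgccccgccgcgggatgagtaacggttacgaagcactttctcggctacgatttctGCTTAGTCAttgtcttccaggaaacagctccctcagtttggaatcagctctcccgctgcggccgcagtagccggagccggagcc
GCLC: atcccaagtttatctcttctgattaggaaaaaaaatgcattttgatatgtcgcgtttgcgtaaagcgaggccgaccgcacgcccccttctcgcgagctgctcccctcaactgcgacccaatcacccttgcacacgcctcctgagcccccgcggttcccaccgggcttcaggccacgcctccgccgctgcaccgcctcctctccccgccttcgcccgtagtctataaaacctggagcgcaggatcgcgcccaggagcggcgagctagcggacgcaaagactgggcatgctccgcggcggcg
None of the 8 windows held the longer form of the heat shock element, found in 0.49% of promoters, or the shorter form GAANNTTC, found in 6.77%. The promoter of HMOX1 was not among them and was not searched. The shorter form in its other order, TTCNNGAA, was not searched in any window. The core matches shared no base with the CCAAT or GGGCGG matches in these windows. A match is a run of letters and not evidence of binding, and elements farther from the start lie outside these windows.

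All 10 genes passed the filter of at least 1 FPKM in at least 3 libraries. Of the 10, 1 was higher in PAL (KEAP1) and 3 were lower (HMOX1, GCLC and TXNRD1) at a limma adjusted p under 0.05. Over all 12258 genes tested, 25.9% were called, 11.4% as higher and 14.5% as lower. The counts of called genes in each list below stand against these same shares. The PAL and control values did not overlap for 6 of the 10 genes, against 44.9% of all genes tested. By size, HMOX1 stood apart from the other 9, whose differences lay between -0.40 and 0.22 on the log2(FPKM + 1) scale.

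In level per length, NQO1 was the highest of the 10 in both groups and SRXN1 the lowest. In PAL the order was NQO1, TXNRD1, KEAP1, GCLM, SLC7A11, HMOX1, NFE2L2, GCLC, OSGIN1 and SRXN1. Neighbours were separate in every PAL library except SLC7A11 and HMOX1, and GCLC and OSGIN1, which overlapped. In control the order was the same apart from HMOX1, which stood at rank 3 in place of rank 6 in PAL, and each neighbour was separate in every control library.

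**Figure D1:**
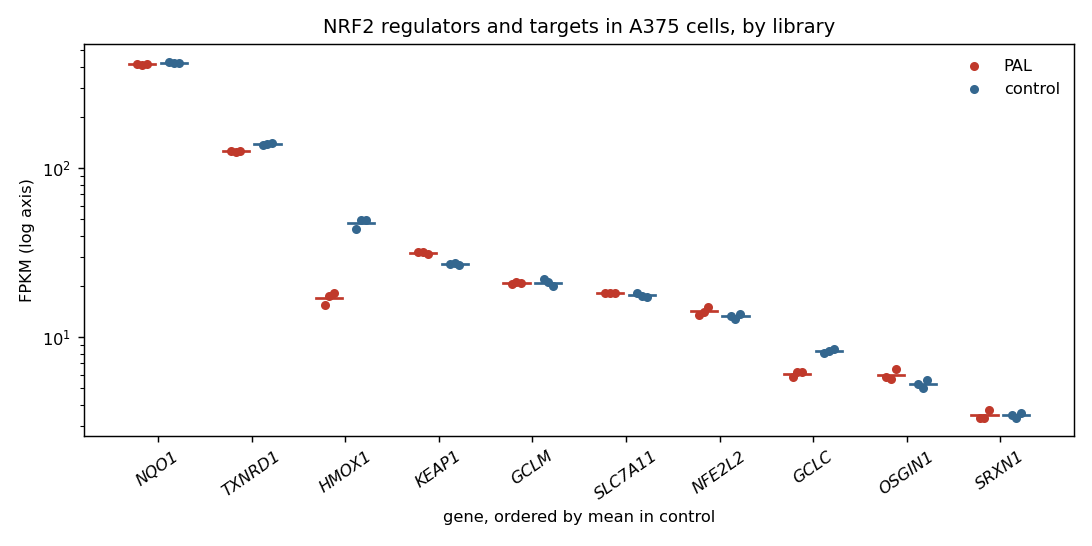
FPKM of the 10 genes on a log axis, in PAL (red, left of each pair) and control (blue, right) libraries; points are libraries and bars are means of 3. HMOX1 lies at 15.6 to 18.2 FPKM in PAL and 43.5 to 49.7 in control, while NQO1 lies at 411 to 416 in PAL and 418 to 427 in control.

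KEAP1 rose by a small amount, and NFE2L2 did not pass the test. NFE2L2 (ENSG00000116044, hg38 chromosome 2, 177227595 to 177392697) had 13.5, 14.1 and 15.2 FPKM in PAL replicates 1, 2 and 3, against 13.4, 12.9 and 13.8 FPKM in control. The groups overlapped, with PAL replicate 3 the highest of the 6 libraries. Its difference was 0.08 on the log2 scale (95% interval -0.033 to 0.20, limma adjusted p = 0.252). Scaling libraries by their plain read totals made it pass as higher (0.16, adjusted p = 0.0366), and adjusted p ran between 0.0366 and 0.560 over the 18 alternatives tried. Of its exon bases, 17.6% are shared with AC019080.1 on the same strand, which was at 0.0336 FPKM in PAL and 0.0578 in control.

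KEAP1 (ENSG00000079999, chromosome 19, 10486120 to 10503741) rose. It had 32.1, 31.8 and 31.3 FPKM in PAL, against 27.1, 27.4 and 26.6 FPKM in control. Every PAL library was above every control library. The mean was 117% of control, a difference of 0.22 ± 0.027 (SE) on the log2 scale (95% interval 0.16 to 0.29, limma adjusted p = 0.00185), and it was called in 18 of 18 alternatives. The ratio of NFE2L2 to KEAP1 within a library, which does not depend on scaling, averaged 0.449 ± 0.0322 in PAL and 0.495 ± 0.0245 in control (SD, n = 3 each). The groups of this ratio overlapped (two-sided exact permutation p = 0.20, adjusted p = 0.20 over 3 ratios).

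Among the other regulators of NRF2, the small MAF partners MAFF and MAFK fell, and the third, MAFG, rose by a small amount. Of 18 tested genes of that list, 1 was higher and 5 lower, with a median difference of -0.0014 against 0.004 for all genes tested. MAFF had 4.36, 4.84 and 5.20 FPKM in PAL, against 15.6, 17.1 and 19.97 FPKM in control. The difference was -1.68 (limma adjusted p = 5.90e-05), and all PAL libraries were below all control libraries. MAFK was at 7.37 ± 0.847 FPKM in PAL and 11.3 ± 1.78 in control, a fall of 0.55 (limma adjusted p = 0.0145). Leaving out PAL replicate 2 ended that call (adjusted p = 0.0509), as did testing without a filter (adjusted p = 0.0551), and the adjusted p of its 18 alternatives began at 2.00e-04. MAFG was at 15.1 ± 0.233 FPKM in PAL and 13.05 ± 1.11 in control, a rise of 0.20 (limma adjusted p = 0.0428). The MAFG call was lost when any library but control replicate 3 was left out, with adjusted p from 0.0873 to 0.124.

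BACH1 had 4.18, 3.63 and 4.09 FPKM in PAL, against 5.08, 5.12 and 5.10 FPKM in control. The difference was -0.30 (limma adjusted p = 0.00986), with no overlap between groups. The other falls were CAND1, an exchange factor of cullin ligases (difference -0.13, called in 9 of 18 alternatives), and PGAM5, a mitochondrial phosphatase that binds KEAP1 (difference -0.23, called in 13 of 18). SQSTM1, or p62, an autophagy receptor that binds KEAP1 and is itself a target of NRF2, was at 123 ± 3.65 FPKM in PAL and 123 ± 3.31 in control (limma adjusted p = 0.952), and it passed as higher after quantile normalization (0.11, adjusted p = 0.0368, the lowest of its alternatives, with 0.987 the highest). CUL3, the scaffold of the ligase, was at 7.45 ± 0.388 and 7.98 ± 0.144 (limma adjusted p = 0.194). Without the libraries numbered 3, the list had 1 higher and 4 lower, and with plain read totals 4 higher and 3 lower.

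Glutathione synthesis begins with glutamate-cysteine ligase, built of the catalytic subunit GCLC and the modifier GCLM. GCLC fell, and GCLM did not pass the test. GCLC (ENSG00000001084, chromosome 6, 53497341 to 53616970) had 5.80, 6.19 and 6.20 FPKM in PAL, against 8.08, 8.32 and 8.47 FPKM in control. All PAL libraries were below all control libraries. The mean was 73.1% of control, a fall of 0.40 ± 0.042 (SE) on the log2 scale (95% interval -0.49 to -0.30, limma adjusted p = 0.00115), called in 18 of 18 alternatives. The values rest on 893 to 1134 reads per library.

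GCLM (ENSG00000023909, chromosome 1, 93885205 to 93909456) had 20.7, 21.2 and 21.0 FPKM in PAL, against 22.02, 21.1 and 20.1 FPKM in control. The PAL values lay within the range of control. The difference was -0.0046 on the log2 scale (95% interval -0.10 to 0.086, limma adjusted p = 0.942). Its sign turned under 3 scalings and without PAL replicate 1 or control replicate 1, and no alternative called it. The ratio of GCLC to GCLM was 0.280, 0.292 and 0.295 in PAL, against 0.367, 0.394 and 0.422 in control. The ratio did not overlap between groups (two-sided exact permutation p = 0.10, the smallest that 3 against 3 allows, adjusted p = 0.15 over 3 ratios).

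SLC7A11 (ENSG00000151012, chromosome 4, 138164097 to 138242349), the cystine importer xCT that supplies cysteine for glutathione, had 18.2, 18.3 and 18.2 FPKM in PAL, against 18.3, 17.5 and 17.3 FPKM in control. The groups overlapped through control replicate 1. The difference was 0.041 on the log2 scale (95% interval -0.034 to 0.12, limma adjusted p = 0.377), and plain read totals made it pass as higher (0.12, adjusted p = 0.0264, with 0.659 the highest of its 18 alternatives). SLC3A2, the heavy chain that carries xCT and other transporters to the cell surface, fell. It had 104, 106 and 108 FPKM in PAL, against 133, 135 and 149 FPKM in control (difference -0.39, limma adjusted p = 0.00144).

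Of 26 tested genes of glutathione synthesis and use beyond the 10, 1 was higher and 3 lower, with a median difference of 0.031. With plain read totals the split was 9 higher and 2 lower, and without the libraries numbered 3 it was 2 and 2. CHAC1, which breaks down glutathione and is a target of ATF4, had 3.14, 3.17 and 3.19 FPKM in PAL, against 18.5, 17.8 and 19.6 FPKM in control. The difference was -2.24 (limma adjusted p = 1.21e-06), and the groups lay far apart. GLRX, a glutaredoxin, fell by 0.25, a call kept in 6 of 17 alternatives. GSTP1, a glutathione transferase, rose to 214 ± 3.44 FPKM in PAL, against 197 ± 3.17 in control (difference 0.12, limma adjusted p = 0.0127), but not past the threshold once PAL replicate 1 was left out (adjusted p = 0.0516) or the variance trend dropped (adjusted p = 0.0537), its alternatives starting at 0.00146. GSS, which completes glutathione, and GSR, which recycles it, were at 14.5 and 25.4 FPKM in PAL and 14.6 and 26.6 in control, with limma adjusted p of 0.953 and 0.211.

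In the thioredoxin arm, TXNRD1 fell by a small amount, and SRXN1 did not pass the test. TXNRD1 (ENSG00000198431, chromosome 12, 104215779 to 104350305), the cytosolic selenoenzyme that reduces thioredoxin, had 127, 125 and 127 FPKM in PAL, against 137, 139 and 141 FPKM in control. All PAL libraries were below all control libraries. The mean was 90.8% of control, a fall of 0.14 ± 0.023 (SE) on the log2 scale (95% interval -0.19 to -0.08, limma adjusted p = 0.00648). The call was kept in 15 of 18 alternatives and was lost under each other scaling, as TPM (-0.067, adjusted p = 0.0748), after quantile normalization (-0.042, adjusted p = 0.237) and with plain read totals (-0.053, adjusted p = 0.114). The values rest on 13827 to 15690 reads per library.

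SRXN1 (ENSG00000271303, chromosome 20, 646615 to 653370), sulfiredoxin, which reactivates overoxidised peroxiredoxins, had 3.32, 3.33 and 3.70 FPKM in PAL, against 3.49, 3.33 and 3.57 FPKM in control. The groups overlapped, and the difference was -0.0034 (95% interval -0.14 to 0.13, limma adjusted p = 0.971). It rests on 133 to 184 reads per library, the fewest of the 10, and its sign turned under several alternatives. Of its exon bases, 85.0% are shared with AL121758.1 on the same strand, listed at 0 in all 6 libraries, so the split of reads between both is uncertain.

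Beyond these, 19 genes of the thioredoxin system were tested, of which 1 was higher and 3 lower (median difference 0.044). The split was 8 and 2 with plain read totals, and 0 and 2 without the libraries numbered 3. SESN2, a stress-induced sestrin and target of both NRF2 and ATF4, had 4.90, 5.33 and 5.41 FPKM in PAL, against 14.9, 15.8 and 18.6 FPKM in control (difference -1.48, limma adjusted p = 5.30e-05). TXNIP, an inhibitor of thioredoxin, was at 2.79 ± 0.304 FPKM in PAL and 5.31 ± 1.26 in control, a fall of 0.72 (limma adjusted p = 0.0136) that missed the threshold with no filter (adjusted p = 0.0532, range 3.14e-04 to 0.0532). PRDX6, a peroxiredoxin, fell by 0.088, a call kept in 6 of 18 alternatives. MSRB2, a mitochondrial methionine sulfoxide reductase, rose by 0.22 (limma adjusted p = 0.0414), and that call was lost when any 1 library was left out (adjusted p from 0.0608 to 0.121). The MSRB2 call was kept in 7 of 17 alternatives, with 0.138 the highest adjusted p. Thioredoxin itself, TXN, was at 352 ± 1.74 FPKM in PAL and 340 ± 6.01 in control (limma adjusted p = 0.121).

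NQO1 (ENSG00000181019, chromosome 16, 69706996 to 69726951), which reduces quinones and is a standard reporter of NRF2 activity, had 413, 411 and 416 FPKM in PAL, against 427, 420 and 418 FPKM in control. The groups did not overlap, although PAL replicate 3 and control replicate 3 were close. The difference was -0.03 on the log2 scale (95% interval -0.077 to 0.018, limma adjusted p = 0.314), and its sign turned under each other scaling. By mean FPKM over all 6 libraries it ranked 68 of 12258 genes tested. Of its exon bases, 17.7% are shared with the antisense gene AC092115.2, which was at 6.05 FPKM in PAL and 6.54 in control, and whether counting used strand is not stated.

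OSGIN1 (ENSG00000140961, chromosome 16, 83948282 to 83966332), an oxidative stress-induced growth inhibitor, had 5.83, 5.63 and 6.495 FPKM in PAL, against 5.31, 4.98 and 5.58 FPKM in control. Each PAL library was above each control library, by a small margin. The difference was 0.15 ± 0.063 (SE) on the log2 scale (95% interval 0.0018 to 0.30, limma adjusted p = 0.123). It passed as higher as TPM (adjusted p = 0.0459) and with plain read totals (adjusted p = 0.0313), the lowest of its 18 alternatives, with 0.295 the highest.

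**Figure D2:**
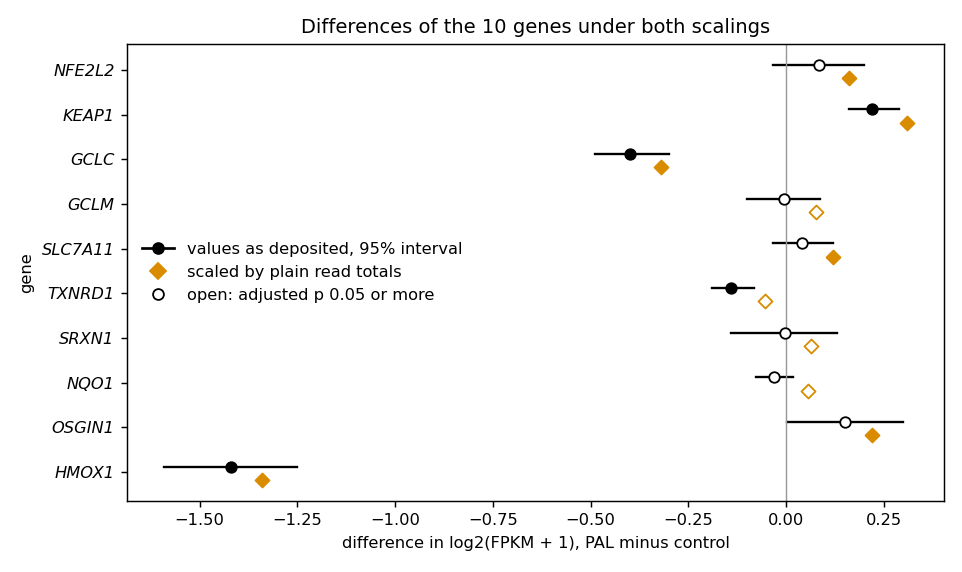
Differences of the 10 genes in log2(FPKM + 1), PAL minus control, with 95% intervals for the values as deposited (black circles) and the estimate after scaling by plain read totals (orange diamonds); filled symbols have an adjusted p under 0.05. With plain read totals all 10 estimates move to the right: NFE2L2, SLC7A11 and OSGIN1 pass as higher, TXNRD1 no longer passes, and GCLM, SRXN1 and NQO1 change sign without passing.

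The scaling matters for these small differences. The median of all genes tested moved by 0.07 on the log2 scale when libraries were scaled as TPM or by plain read totals, and by 0.03 after quantile normalization. The calls among the 10 were 1 higher and 3 lower as deposited, 2 and 2 as TPM, 1 and 2 after quantile normalization, and 4 and 2 with plain read totals. Over all genes, rises made up 44.0% of calls as deposited, 69.7% as TPM, 59.2% after quantile normalization and 73.3% with plain read totals. KEAP1 as higher and GCLC and HMOX1 as lower were called under all 4 scalings.

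The next list held genes linked to the supply of NADPH, the reductant for glutathione and thioredoxin reductases and for NQO1. Of 14 tested, 0 were higher and 3 lower (median difference -0.036). IDH1, cytosolic isocitrate dehydrogenase, had 14.98, 13.96 and 15.2 FPKM in PAL, against 18.3, 18.6 and 18.1 FPKM in control (difference -0.30, limma adjusted p = 0.0024). MTHFD2, a mitochondrial enzyme of the folate cycle, fell by 0.23 and NNT, the mitochondrial transhydrogenase, by 0.16. With plain read totals 5 were higher and 2 lower, and without the libraries numbered 3 the split was 0 and 3.

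Other detoxification targets of NRF2 had 0 higher and 4 lower of 16 tested (median difference -0.038), 2 and 2 with plain read totals, and 0 and 2 without the libraries numbered 3. Over all genes tested, 25.9% were called, 11.4% as higher and 14.5% as lower. UGDH, which makes UDP-glucuronate, had 9.30, 10.3 and 9.72 FPKM in PAL, against 16.1, 17.6 and 19.1 FPKM in control. The difference was -0.79 (limma adjusted p = 3.60e-04), with all PAL libraries below all control libraries. TRIM16, a ubiquitin ligase linked to NRF2 signalling, fell by 0.31 (limma adjusted p = 0.00482). AKR1C2, an aldo-keto reductase with near-identical relatives, and PIR, pirin, fell by 0.17 and 0.10, with limma adjusted p of 0.0424 and 0.0491, and kept those calls in 6 of 17 and 4 of 18 alternatives. ABCC2, an exporter of glutathione conjugates, was at 15.2 ± 0.622 FPKM in PAL and 14.9 ± 0.5003 in control (limma adjusted p = 0.679).

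HMOX1 (ENSG00000100292, chromosome 22, 35380361 to 35394214) encodes heme oxygenase 1, which opens the heme ring to release iron, carbon monoxide and biliverdin. It responds to NRF2 and to heme through BACH1, and it is also known as the heat shock protein HSP32. HMOX1 had 15.6, 17.5 and 18.2 FPKM in PAL, against 43.5, 49.3 and 49.7 FPKM in control. All PAL libraries were far below all control libraries. The mean was 36.0% of control, a fall of 1.42 ± 0.071 (SE) on the log2 scale (95% interval -1.59 to -1.25, limma adjusted p = 4.06e-05). It was called in 18 of 18 alternatives, with estimates of -1.48 to -1.34, and was the fall of rank 98 among 12258 genes tested.

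Set against NQO1 in the same library, HMOX1 had a ratio of 0.0377, 0.0427 and 0.0436 in PAL, against 0.102, 0.117 and 0.119 in control. The groups of this ratio did not overlap, and the difference was -1.44 on the log2 scale (two-sided exact permutation p = 0.10, the smallest possible, adjusted p = 0.15 over 3 ratios). None of the other 7 targets had a 95% interval that reached the interval of HMOX1. HMOX2, the constitutive heme oxygenase, was at 19.0 ± 1.12 FPKM in PAL and 18.7 ± 0.575 in control (limma adjusted p = 0.787).

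Heme and iron genes showed no common direction, with 2 higher and 3 lower of 17 tested (median difference -0.015), 3 and 3 with plain read totals, and 0 and 3 without the libraries numbered 3. ALAS1, the rate-limiting enzyme of heme synthesis, which heme represses, had 41.3, 44.4 and 43.2 FPKM in PAL, against 53.8, 54.3 and 56.2 FPKM in control. The difference was -0.34 (limma adjusted p = 8.69e-04), and no PAL library reached a control library. FECH, which inserts iron into heme, fell by 0.27 (limma adjusted p = 0.00994), which did not pass once both libraries numbered 3 were dropped (adjusted p = 0.0642, the highest of its alternatives, with 0.00284 the lowest), and TFRC, the transferrin receptor, fell by 0.20. SLC48A1, a heme transporter, was at 3.93 ± 0.281 FPKM in PAL and 2.95 ± 0.197 in control (difference 0.32, limma adjusted p = 0.0134), which likewise did not pass without them (adjusted p = 0.0731, with 0.00257 the lowest of its alternatives). FTH1, ferritin heavy chain, rose by 0.12 (limma adjusted p = 0.0243) and lost its call without PAL replicate 2 or 3 or control replicate 1 or 2, with adjusted p from 0.0596 to 0.0785. The FTH1 call was kept in 11 of 18 alternatives, with 0.182 the highest adjusted p.

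Heat shock genes fell in the same libraries as HMOX1, several of them by more. Of 21 tested, 19 were lower and 0 higher, with a median difference of -1.07. Their summed level was 3572 to 4031 FPKM in PAL and 11414 to 11732 in control. HSPA1A, an inducible HSP70, had 48.8, 51.7 and 95.4 FPKM in PAL, against 1364, 1414 and 1379 FPKM in control (difference -4.45, limma adjusted p = 4.59e-05). HSPA6, another inducible HSP70, had 20.7, 27.4 and 73.2 FPKM in PAL, against 1999, 1960 and 1685 FPKM in control, a fall of 5.71. By mean FPKM over all 6 libraries, which rests mostly on the control values, HSPA6 ranked 23 of 12258 genes tested. DNAJB1, an HSP40 co-chaperone, fell by 3.93. The direction of every difference rests on the sample labels, and why heat shock genes were high in control was not tested. HSPA1A and its near-identical copy HSPA1B share reads, so their split is uncertain. PAL replicate 3 was the highest PAL library for HSPA1A, HSPA6, DNAJB1 and HMOX1, and also for NFE2L2, GCLC, SRXN1, NQO1 and OSGIN1. HMOX1 had 18.2 FPKM in it, close to the 17.5 of PAL replicate 2. Control replicate 3 was the highest control library for HMOX1 and DNAJB1 and the lowest for HSPA6. Without both libraries numbered 3, HMOX1 fell by 1.43 (limma adjusted p = 8.77e-04), and the heat shock list had 18 lower and 1 higher, HSF1. The part of the heat shock difference in that of HMOX1 was not tested.

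ATF4 is a factor that also drives SLC7A11 and CHAC1. The list of ATF4 targets, which counts ATF4 itself, had 2 higher and 8 lower of 17 tested (median difference -0.36). The split was 2 and 8 with plain read totals, and 2 and 9 without the libraries numbered 3. CHAC1, SLC3A2 and SESN2 were also counted as lower in the glutathione or thioredoxin list, so these falls are not separate. ATF3, a stress factor, had 1.96, 1.498 and 2.67 FPKM in PAL, against 30.5, 33.7 and 33.9 FPKM in control (difference -3.48, limma adjusted p = 1.44e-05). ATF4 itself was at 132 ± 7.43 FPKM in PAL and 144 ± 6.93 in control (limma adjusted p = 0.127), and passed as lower with voom, limma's model of weighted read counts, on recovered reads (adjusted p = 0.0315, the lowest of its alternatives, with 0.699 the highest). SLC7A5 and SLC7A1, amino acid transporters, both rose by 0.22 (limma adjusted p = 0.0103 and 0.0193). The SLC7A1 call was lost without PAL replicate 1 or 2 or control replicate 1 or 2 (adjusted p from 0.0584 to 0.0705).

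**Figure D3:**
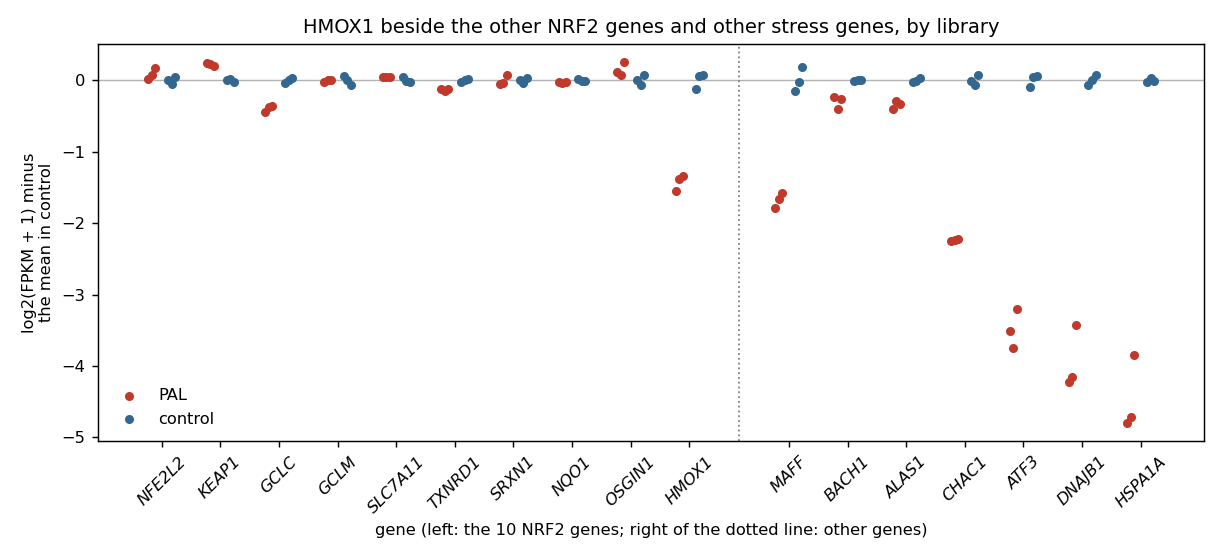
Each library as log2(FPKM + 1) minus the mean of the gene in control, for the 10 genes (left of the dotted line) and 7 other genes (right), PAL in red and control in blue. The PAL points of HMOX1 lie near those of MAFF, the other 9 genes lie within 0.5 of 0, and ATF3, DNAJB1 and HSPA1A lie lower still.

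The genes nearest to HMOX1 in profile were found by the root mean square difference of log2(FPKM + 1), each gene centred on its own control mean, over the 6 libraries and 10337 protein-coding genes. They were KLF11, a zinc finger repressor (0.0746), CTGF, a secreted matrix protein (0.0779), SESN2 (0.0802), NKRF, a repressor of NF-kB targets (0.0851), and GADD45A, a growth arrest gene (0.0896). Their differences were -1.40, -1.35, -1.48, -1.45 and -1.46 on the log2 scale, in that order, and limma called each as lower. Both follow from choosing these genes by their likeness to HMOX1 in the same libraries. CTGF, for example, had 36.9, 37.0 and 43.2 FPKM in PAL, against 96.4, 102 and 105 FPKM in control. With 2 groups of libraries, such likeness mostly records a fall of like size.

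**Figure D4:**
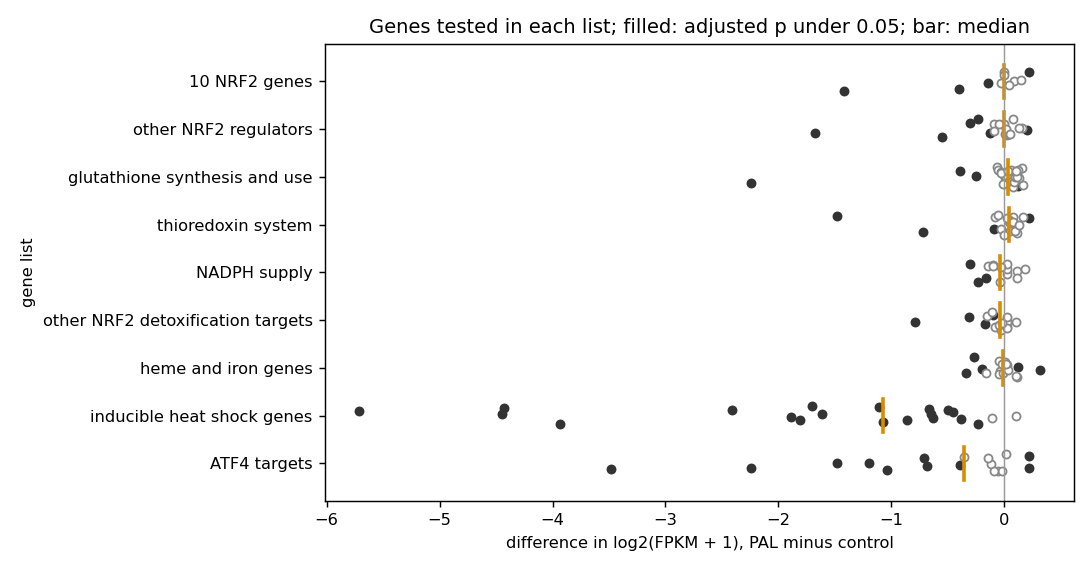
Difference in log2(FPKM + 1), PAL minus control, of each tested gene (points; filled where the adjusted p is under 0.05) in the 10 NRF2 genes and 8 lists, with the median as a bar. Medians lie near 0 for the 10 NRF2 genes and the other regulators, glutathione, thioredoxin, NADPH, detoxification and heme lists. They lie at -1.07 for heat shock genes and at -0.36 for ATF4 targets. With plain read totals, more pass as higher than as lower among the 10 NRF2 genes, other regulators, glutathione, thioredoxin and NADPH lists.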

How the data were processed

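The deposited values are FPKM, read numbers divided by gene length and library size, with 1 column per library, per the file headers. Coordinates are on hg38, the build in the submitters' processing notes. Aligner, counter and strand setting: not given in the sources used here. Multiplied by gene length and divided by each library's smallest unit, 100% of non-zero FPKM came out whole to within 0.01, which recovered the reads per gene. The library size behind the FPKM was 1.0398 to 1.0474 of assigned reads in PAL libraries and 0.98 to 0.9842 in control libraries. It was thus not the plain read total, and scaling by plain read totals raises PAL values and lowers control values.

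The 12258 genes with at least 1 FPKM in at least 3 libraries, of 58735 listed, were fitted with limma 3.58.1 in R 4.3.3 on log2(FPKM + 1), with a variance trend, two-sided, and Benjamini-Hochberg adjustment over all genes tested, at a threshold of 0.05. Differences are PAL minus control and understate the change of low genes. The fit was tested on simulated data in which few genes changed, rises and falls were balanced and the library scaling was exact. That test cannot show how scaling affects the calls in these data.

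The 10 genes and 8 pathway lists were chosen with earlier results of these data known. All 193 entries of the pathway and marker lists were matched. Named genes were the 10, up to 2 called rises and 2 called falls per list, the 5 genes nearest to HMOX1, and a set of context genes. CAND1, PGAM5, GLRX, PRDX6, NNT, AKR1C2, PIR, TFRC and HSF1 lie outside that rule, were named after their values were seen, and complete small counts. CUL3, GSS, GSR, TXN and ABCC2 also lie outside it and were added after their values were seen, as uncalled members of their lists. The marker genes shown are likewise outside it. Alternatives covered the pseudocount, filter, scaling, variance model, replicate block, voom on recovered reads and left-out libraries. Figures used matplotlib 3.10.9.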

Additional observations from a re-analysis of the deposited data

How the results depend on the processing

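KEAP1 as higher and GCLC and HMOX1 as lower kept their calls in all 18 alternatives. Calls among the 10 genes ranged from 3 after quantile normalization to 6 with plain read totals. Signs turned only for genes that were not called. With TPM, quantile normalization and plain read totals, GCLM came to 0.065, 0.045 and 0.077, SRXN1 to 0.062, 0.0050 and 0.063, and NQO1 to 0.041, 0.056 and 0.055 on the log2 scale. Leaving out 1 library gave -0.037 to 0.026 for GCLM, -0.043 to 0.017 for SRXN1, -0.021 to 0.024 for SQSTM1 and -0.025 to 0.052 for HMOX2, which was at -0.0017 without both libraries numbered 3. With the mean filter of 5 FPKM, SRXN1 was not tested.

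The 3179 calls over all genes became 2103 with no filter and 1855 to 2789 when 1 library was left out, the fewest being 1855 without PAL replicate 2, 1972 when PAL replicate 1 was absent and 2051 when control replicate 2 was. The cause was not tested. Called genes per list ranged over alternatives from 3 to 8 for other regulators (6 as reported), 2 to 11 for glutathione (4), 1 to 10 for thioredoxin (4), 3 to 7 for NADPH (3), 2 to 4 for detoxification (4) and 3 to 6 for heme and iron (5).

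Same-numbered libraries did not deviate together (r of -0.0447 to 0.0273 over 12258 genes, and -0.0406 to 0.0612 for other pairs), so the numbers are not taken as pairs. With a replicate block there were 2131 calls over all genes and 4 among the 10. The block ended the calls of MAFK, MAFG, MSRB2 and SLC7A1 (limma adjusted p = 0.0512, 0.0775, 0.083 and 0.0622) and of no other gene named by the rule, and it left 3 called genes among other regulators, 2 in the thioredoxin system and 2 among detoxification targets. Under it the ratio differences, -0.14, -0.45 and -1.44 on the log2 scale, cannot go below p = 0.25 by exact permutation of 3 pairs.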
